A study of Mus musculus with 4 samples.

Results

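The genes described here are those of transforming growth factor beta (TGF-beta) signalling and of the contractile, matrix-making cytoskeleton that it governs in fibroblasts. A list of 37 gene symbols was matched to the probe sets that the platform annotation gives to a single gene, and 36 were found among 22180 genes; Fbn1, the gene of the microfibril protein fibrillin-1, was not. For a gene with several probe sets, the brightest on average was used. The study measured total RNA from mouse cells on 4 expression arrays, each of a different condition and with no replicate. The 10 day and 38 h arrays hold induced pluripotent stem cells (iPSC), labelled as stable clones that came from fibroblasts with Sumo2 knockdown; the labels do not say what the times count, nor whether each array is 1 clone. The other arrays hold bulk cultures of reprogrammable mouse embryonic fibroblasts, which switch on reprogramming factors under doxycycline, on day 6 of induction. In 1 of these Sumo2, a small ubiquitin-like modifier, was knocked down, and in the other Firefly luciferase, which mouse cells lack. All 4 share the strain Black6-129X1/SvJ, pooled male and female cells, serum-containing stem cell medium, and fibroblasts treated with ascorbic acid and doxycycline.

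TGF-beta ligands are secreted in a latent form, tied to the matrix by latent TGF-beta binding proteins (Ltbp), and once released they bind the type II receptor, which activates the type I receptor. The type I receptor phosphorylates Smad2 and Smad3, which enter the nucleus with Smad4, while Smad7, Ski and Skil restrain the pathway. In fibroblasts the pathway raises matrix genes and, together with serum response factor (SRF) and the TEAD factors, the genes of contractile actin fibres. Reprogramming to pluripotency involves a loss of mesenchymal character, and TGF-beta signalling is known to hinder it in mouse fibroblasts.

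Values are log2 expression, so a difference of 1 is 2-fold. The measuring floor was each array's median over probe sets with 1 gene, 6.64 to 6.67. A gene counted as measured when it reached the floor on at least 1 array compared. Sumo2 itself read 10.56 in the culture labelled Sumo2 knockdown and 10.65 in the Firefly knockdown culture, 93.8% of the control level, so the transcript does not show the knockdown, and every direction drawn from that culture rests on its label. Pluripotency markers separated the arrays as labelled: 5 of 6 reached the floor in the 10 day and 38 h lines, with Nanog at 12.50 and 12.05, against 9.87 in the Sumo2-labelled culture and 7.54 in the Firefly culture. Dppa5a, the sixth, was below the floor on all 4 arrays.

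Of 6 fibroblast markers, 4 fell in the iPSC lines by limma (Thy1, Prrx1, Col6a1 and Mmp2), Pdgfrb did not pass (adjusted p = 0.117), and Twist2 overlapped between the groups. At the same time 5 reached the floor in both lines, 5 in the Sumo2-labelled culture and 6 in the Firefly culture. Their summed level, as log2, was 11.37 in the 10 day line and 11.78 in the 38 h line, against 13.14 in the Sumo2-labelled culture and 13.55 in the Firefly culture. Thy1 and Prrx1 still read 8.69 and 9.11 in the 10 day line. In bulk samples fewer cells of a type and less RNA per cell cannot be told apart, and the part of remaining fibroblast RNA in the results below was not tested. Of 6 smooth muscle markers, Myocd, the muscle co-activator of SRF, and Synpo2 were below the floor on all 4 arrays and Myh11, smooth muscle myosin, lay between 6.51 and 6.94. The other 3 reached the floor on all 4 arrays: Smtn lay between 8.75 and 9.17 and did not pass (limma adjusted p = 0.117), Lmod1 fell by 0.997 on the log2 scale (limma adjusted p = 0.00762), and Des rose 3.22-fold (limma adjusted p = 0.00477). Of the endothelial markers, Kdr and Emcn were below the floor on all 4 arrays and Cdh5 on 3. Tek read 8.17 and 7.95 in the 10 day and 38 h lines against 10.50 and 10.50 in the Sumo2-labelled and Firefly cultures. Pecam1 went the other way, at 10.18 and 9.54 in the 10 day and 38 h lines and below the floor in both cultures. Of the macrophage markers, Ptprc, Csf1r and Adgre1 were below the floor on all 4 arrays. Cd68 lay between 8.69 and 10.02 and was 2.06-fold higher in the lines (limma adjusted p = 0.0104). Lyz2 reached the floor on 3 arrays and was 2.36-fold higher in the lines as read (limma adjusted p = 0.0257). With the Sumo2-labelled culture set at the floor, Lyz2 was at least 1.93-fold higher.

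The first question was how these genes differed between the iPSC lines and the day 6 cultures. Most of the actin cytoskeleton genes, a pair of the ligands, the type II receptor and Ccn1 were lower in both lines, while the inhibitors Smad7 and Skil, the latency genes Ltbp4 and Ltbp1, and the matrix genes Postn and Lox were higher. In limma, which was fitted over all 12735 measured genes with Benjamini-Hochberg adjusted p under 0.05 as the threshold, 20 of the 36 members fell, 8 rose and 8 did not pass. Over all genes the same test called 17.8% lower and 29.0% higher, 46.8% in all, so the members' share of lower calls (55.6%) stood above that background and their share of higher calls (22.2%) did not. Their median log2 difference was -0.53, against 0.15 over all measured genes. Asking for 2-fold as well left 12 lower and 4 higher members, where 9.12% and 14.3% of all genes passed. Postn counts among both sets of rises although it was below the floor in both day 6 cultures. It was thus measured through the iPSC arrays alone. Genes below the floor on both arrays of a side were then left out, a setting chosen after seeing the data. This left 35 members, of which 7 rose and 20 fell, 3 and 12 of them by 2-fold. Over all genes 10759 were left, of which 28.3% rose and 16.4% fell, 1320 and 829 of them by 2-fold. The values of the lines did not overlap those of the day 6 cultures for 31 of 36 members, 9 of them higher in the lines and 22 lower; over all genes this held for 79.5%, 46.8% higher and 32.7% lower. At an unadjusted p under 0.05 limma passed 55.4% of all genes. The arrays of each side are different conditions, so the p-values measure the spread between unlike arrays and do not describe replicate cultures. Without the Firefly array fewer genes passed, members among them. The median log2 difference was then -0.40 over members and 0.15 over all genes.

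**Figure D1:**
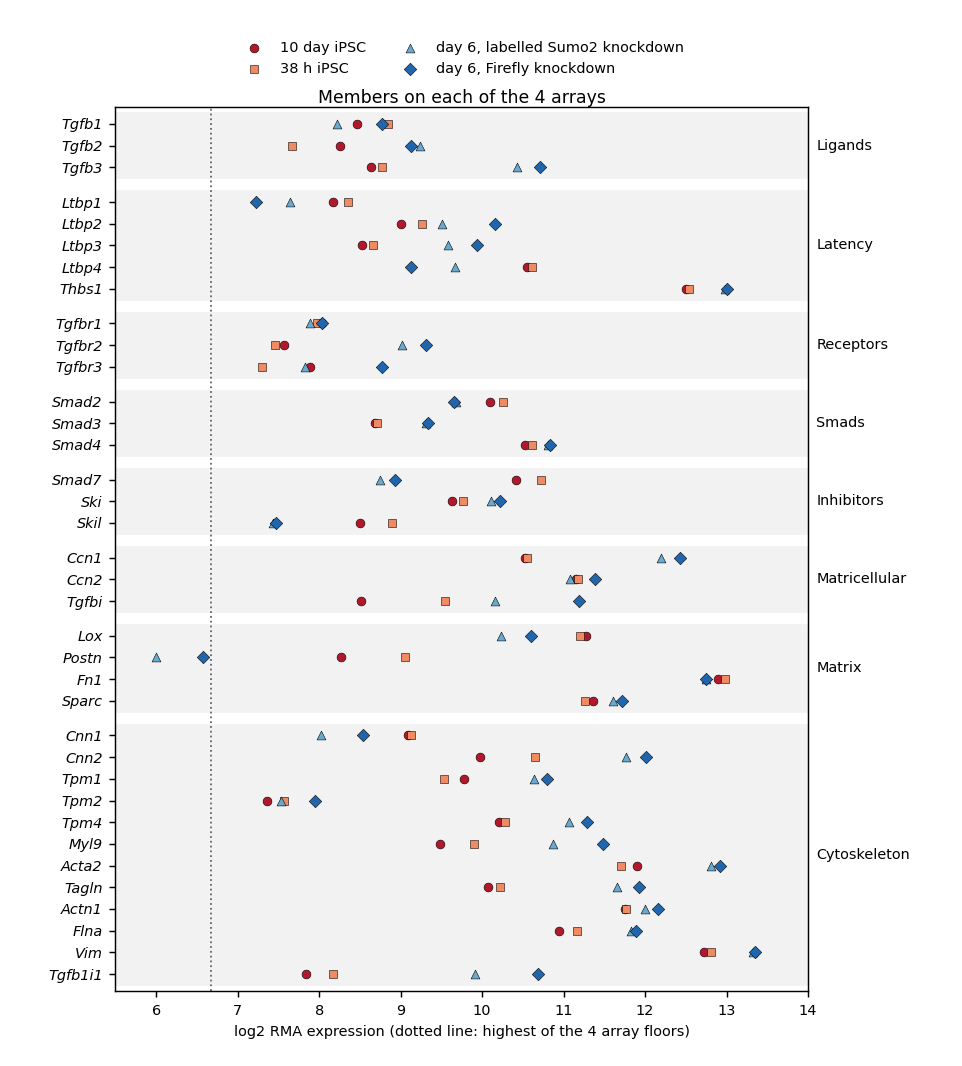
Log2 RMA expression (x axis) of the 36 members (rows, grouped by role) on each of the 4 arrays, 1 symbol per array. Tgfb3, Tgfbr2, Ccn1, Tagln and Tgfb1i1 show both iPSC symbols well left of both day 6 symbols, Smad7, Skil, Ltbp4 and Postn show them to the right, and only Postn lies left of the floor line, in both day 6 cultures.

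Among the ligands, Tgfb3 differed most. It read 8.64 in the 10 day line and 8.77 in the 38 h line, against 10.42 in the Sumo2-labelled culture and 10.71 in the Firefly culture. Both lines lay far below both cultures, and Tgfb3 fell 3.64-fold (log2 difference -1.86, SE 0.17, limma adjusted p = 0.000698). Tgfb2 read 8.26 and 7.67 in the 10 day and 38 h lines, against 9.23 and 9.13 in the Sumo2-labelled and Firefly cultures. It fell 2.33-fold (-1.22, SE 0.23, limma adjusted p = 0.00694), with a wider gap between the lines than between the cultures; without the Firefly array its adjusted p was 0.0504. Tgfb1, the ligand most studied in fibroblasts, did not separate the groups, at 8.46 and 8.85 in the 10 day and 38 h lines against 8.22 and 8.77 in the Sumo2-labelled and Firefly cultures (0.16, SE 0.24, limma adjusted p = 0.615), and the sign of that difference turned with scaling (-0.056 after cyclic loess, and below 0 without the 38 h or the Sumo2-labelled array, -0.039 and -0.12).

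The latency genes went in both directions. Ltbp4 read 10.55 and 10.61 in the 10 day and 38 h lines, against 9.67 and 9.13 in the Sumo2-labelled and Firefly cultures, and rose 2.27-fold (1.18, SE 0.21, limma adjusted p = 0.00532). Ltbp1, at 8.17 and 8.35 in the 10 day and 38 h lines against 7.64 and 7.22 in the Sumo2-labelled and Firefly cultures, rose 1.78-fold (0.83, SE 0.20, limma adjusted p = 0.0165); without the Firefly array the difference was 0.62 and did not pass (adjusted p = 0.102). Ltbp3 moved the other way, at 8.53 and 8.66 in the 10 day and 38 h lines against 9.58 and 9.93 in the Sumo2-labelled and Firefly cultures, and fell 2.23-fold (-1.16, SE 0.19, limma adjusted p = 0.00411). Ltbp2, a microfibril-associated relative, had values of 9.001 and 9.26 in the lines and 9.51 and 10.16 in the cultures, in the same order; it did not pass (-0.70, limma adjusted p = 0.0557), though it did after cyclic loess (-0.93, adjusted p = 0.0281), without the 38 h array (adjusted p = 0.044) and without the Sumo2-labelled array (adjusted p = 0.0245). Thbs1, whose product thrombospondin-1 can release active TGF-beta from its latent complex, was bright on all 4 arrays (12.50, 12.53, 12.98 and 13.01 for the 10 day, 38 h, Sumo2-labelled and Firefly arrays) and fell by a small step of 1.39-fold (-0.48, SE 0.06, limma adjusted p = 0.00205).

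Of the receptors, the signalling type II receptor Tgfbr2 fell and the type I receptor Tgfbr1 did not move beyond its spread. Tgfbr2 read 7.57 in the 10 day line and 7.45 in the 38 h line, against 9.02 in the Sumo2-labelled culture and 9.31 in the Firefly culture, 3.15-fold lower in the lines (-1.66, SE 0.18, limma adjusted p = 0.00106). Tgfbr1 held 8.04 and 7.97 in the 10 day and 38 h lines and 7.88 and 8.04 in the Sumo2-labelled and Firefly cultures (0.05, SE 0.16, limma adjusted p = 0.828), and its sign turned after cyclic loess (-0.11) and without the Sumo2-labelled array (-0.032). Tgfbr3, the co-receptor betaglycan that presents ligand to the type II receptor, had overlapping values, 7.88 and 7.29 in the 10 day and 38 h lines against 7.83 and 8.77 in the Sumo2-labelled and Firefly cultures. Its difference of -0.71 did not pass (SE 0.35, limma adjusted p = 0.136), but without the Sumo2-labelled array it was -1.18 (adjusted p = 0.0478).

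Differences among the signalling Smads were small. Smad2 read 10.09 and 10.26 in the 10 day and 38 h lines against 9.68 and 9.65 in the Sumo2-labelled and Firefly cultures and rose 1.42-fold (0.51, SE 0.15, limma adjusted p = 0.032), but after cyclic loess it no longer passed (0.30, adjusted p = 0.141). Smad3 showed the reverse order, 8.69 and 8.71 in the lines against 9.31 and 9.33 in the cultures, and fell 1.54-fold (-0.62, SE 0.15, limma adjusted p = 0.0185). Both calls rest on all 4 arrays: leaving out any 1 of them gave adjusted p-values of 0.0518 to 0.143 for Smad2 and 0.0547 to 0.0829 for Smad3, with the direction kept. The shared partner Smad4 had a difference of -0.25 and did not pass (limma adjusted p = 0.135), although it did after cyclic loess (-0.44, adjusted p = 0.0306).

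Of the 3 inhibitors, 2 rose and 1 fell. Smad7, the inhibitory Smad that blocks the activated receptor and is itself a TGF-beta target, read 10.41 in the 10 day line and 10.72 in the 38 h line, against 8.74 in the Sumo2-labelled culture and 8.93 in the Firefly culture. The lowest line stood 1.48 log2 units above the highest culture, and the gene rose 3.31-fold (1.73, SE 0.18, limma adjusted p = 0.000956). Skil, the Smad co-repressor also known as SnoN, read 8.50 and 8.90 in the 10 day and 38 h lines against 7.43 and 7.47 in the Sumo2-labelled and Firefly cultures, a rise of 2.38-fold (1.25, SE 0.19, limma adjusted p = 0.00336). Its relative Ski moved the other way by a small step, at 9.63 and 9.77 in the lines against 10.11 and 10.22 in the cultures (-0.46, SE 0.15, limma adjusted p = 0.0435). The call on Ski was lost whichever array was left out (adjusted p = 0.0694 to 0.161), with no filter on low values (adjusted p = 0.0562) and without an intensity trend (adjusted p = 0.0543).

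Ccn1 and Ccn2 encode related matricellular proteins that respond to TGF-beta and TEAD factors, yet their values differed in pattern. Ccn1 read 10.53 in the 10 day line and 10.55 in the 38 h line, against 12.19 in the Sumo2-labelled culture and 12.42 in the Firefly culture, and fell 3.40-fold (-1.77, SE 0.12, limma adjusted p = 0.000288). Ccn2 stayed within a narrow range, 11.15 and 11.17 in the lines against 11.08 and 11.38 in the cultures, with overlapping groups (-0.07, SE 0.14, limma adjusted p = 0.686); without the Firefly array its sign turned (0.082). Whether the genes differ from each other in response was not tested. A dimmer Ccn2 probe set lay below the floor on all 4 arrays, between 5.83 and 6.54. Tgfbi, a secreted adhesion protein named for its induction by TGF-beta, spread widest within each pair, at 8.52 and 9.54 in the 10 day and 38 h lines and 10.15 and 11.19 in the Sumo2-labelled and Firefly cultures. It fell 3.12-fold (-1.64, SE 0.43, limma adjusted p = 0.0224), and without the Firefly array the difference was -1.12 and did not pass (adjusted p = 0.141).

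Of the 4 matrix genes found, Lox rose, Sparc fell, Fn1 did not pass and Postn was measured through the lines alone. Postn, the matrix protein periostin, read 8.27 in the 10 day line and 9.05 in the 38 h line, and was below the floor in the Sumo2-labelled culture (6.00) and the Firefly culture (6.58). Counted from the floor it was at least 4.01-fold higher in the lines; no test is given for it, because it entered the measured set through the lines alone. Lox, lysyl oxidase, which cross-links collagen and elastin, read 11.27 and 11.21 in the 10 day and 38 h lines against 10.24 and 10.60 in the Sumo2-labelled and Firefly cultures, and rose 1.77-fold (0.82, SE 0.15, limma adjusted p = 0.00709). Fn1, fibronectin, was nearly even at 12.89 and 12.98 in the lines against 12.75 and 12.75 in the cultures and did not pass (0.19, SE 0.06, limma adjusted p = 0.0543). Sparc, a collagen-binding matricellular protein, was 11.36 and 11.27 in the lines against 11.60 and 11.72 in the cultures (-0.35, SE 0.11, limma adjusted p = 0.0358), a call lost whichever array was left out (adjusted p = 0.056 to 0.141), with no filter on low values (0.0521) and without an intensity trend (0.113).

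**Figure D2:**
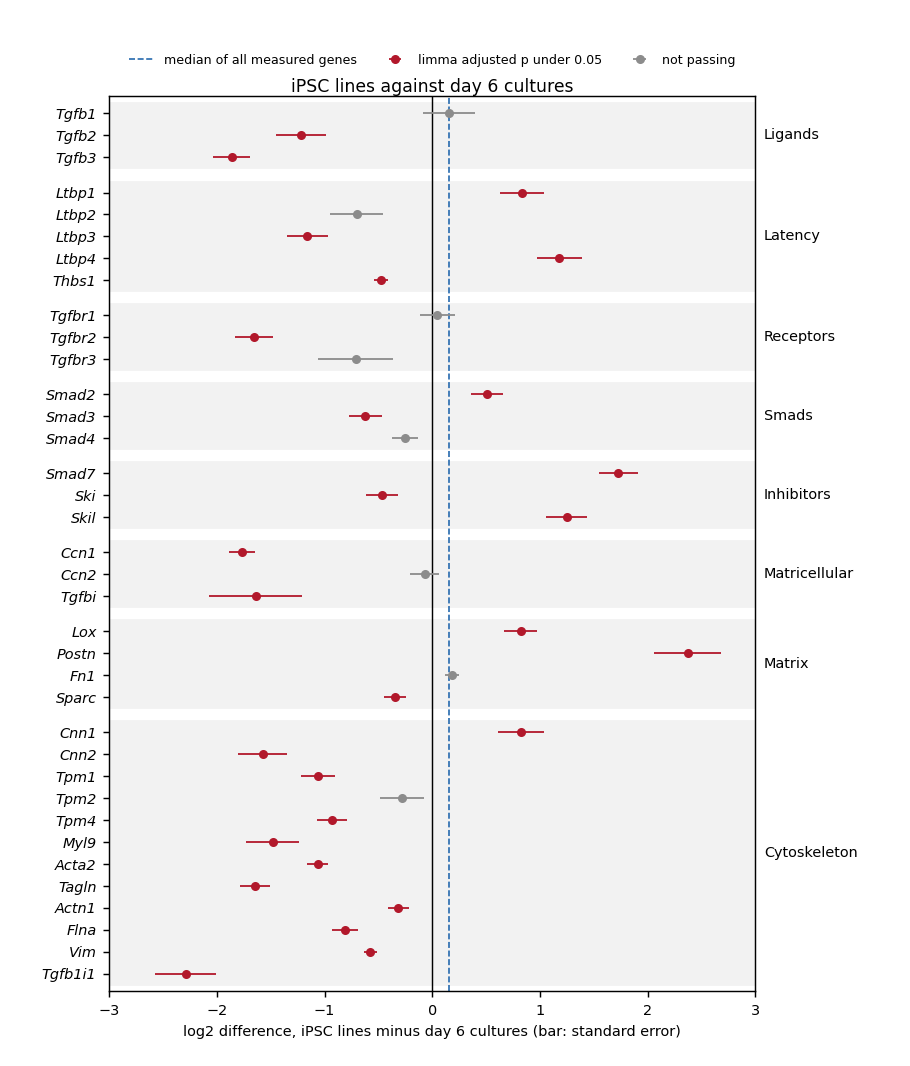
Log2 difference (x axis) of both iPSC lines minus both day 6 cultures for each member, with the standard error of the limma fit as bars; red points passed the adjusted p threshold and the dashed line is the median of all measured genes (0.15). In the cytoskeleton block 10 of 12 genes lie left of 0 and passed, Tpm2 lies left and did not, and Cnn1 lies right. Postn is drawn in red, but it was measured through the lines alone and no test is given for it.

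Of the 12 actin cytoskeleton and filament genes, 10 fell, Cnn1 rose and Tpm2 did not pass, with a median log2 difference of -0.997. The focal adhesion adaptor Tgfb1i1, also known as Hic-5 and induced by TGF-beta, led them. It read 7.84 in the 10 day line and 8.17 in the 38 h line, against 9.91 in the Sumo2-labelled culture and 10.68 in the Firefly culture, and fell 4.89-fold (-2.29, SE 0.28, limma adjusted p = 0.00164). The smallest difference between a line and a culture was -1.74. Tagln, the actin-binding protein SM22, read 10.08 and 10.22 in the 10 day and 38 h lines against 11.66 and 11.92 in the Sumo2-labelled and Firefly cultures, 3.13-fold lower (-1.65, SE 0.14, limma adjusted p = 0.000554). Acta2, the smooth muscle actin that marks myofibroblasts, was bright throughout at 11.90 and 11.70 in the lines against 12.80 and 12.92 in the cultures, and fell 2.09-fold (-1.06, SE 0.10, limma adjusted p = 0.000681). Actins are near-identical in sequence, so how far this probe set also reads other actin transcripts is uncertain.

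Myl9, the regulatory light chain of non-muscle and smooth muscle myosin, read 9.48 and 9.90 in the 10 day and 38 h lines against 10.87 and 11.48 in the Sumo2-labelled and Firefly cultures, and fell 2.80-fold (-1.48, SE 0.24, limma adjusted p = 0.00439). The calponins, which bind actin and restrain myosin, split. Cnn2 read 9.98 and 10.65 in the lines against 11.77 and 12.01 in the cultures and fell 2.98-fold (-1.57, SE 0.23, limma adjusted p = 0.00279). Cnn1, the calponin of smooth muscle, read 9.09 and 9.12 in the lines against 8.02 and 8.54 in the cultures and rose 1.77-fold (0.83, SE 0.21, limma adjusted p = 0.0206). That rise did not pass after cyclic loess (0.61, adjusted p = 0.0632) or without the Sumo2-labelled array (0.57, adjusted p = 0.0802).

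Tropomyosins, which lie along actin filaments, differed in size of change. Tpm1 fell 2.09-fold (9.77 and 9.53 in the 10 day and 38 h lines against 10.64 and 10.79 in the Sumo2-labelled and Firefly cultures; limma adjusted p = 0.00306). Tpm4 fell 1.91-fold (10.21 and 10.28 against 11.06 and 11.29 in the same order; limma adjusted p = 0.00307), and its second probe set gave a larger log2 difference (-1.44 in place of -0.93). Tpm2 had overlapping values, 7.36 and 7.56 in the lines against 7.54 and 7.95 in the cultures (-0.28, SE 0.20, limma adjusted p = 0.292). The cross-linker filamin A (Flna) fell 1.75-fold (10.94 and 11.16 in the lines against 11.83 and 11.89 in the cultures; limma adjusted p = 0.0028). The other cross-linker, alpha-actinin 1 (Actn1), fell 1.24-fold (11.75 and 11.77 against 11.99 and 12.16; limma adjusted p = 0.035). The Actn1 call was lost with no filter on low values (adjusted p = 0.0542), without an intensity trend (0.143), and in 3 of the 4 fits that left out an array: those without the 10 day line (0.0964), the 38 h line (0.0744) or the Firefly culture (0.144). Vim, the mesenchymal filament protein vimentin, fell by 0.57 on the log2 scale (12.72 and 12.81 in the lines against 13.32 and 13.35 in the cultures; limma adjusted p = 0.00101). A dimmer Vim probe set gave 10.14 and 10.06 in the lines against 11.56 and 12.02 in the cultures, a difference of -1.68, so the size depends on the probe set.

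Promoter sequence was available for 25 of the 37 genes (30 promoters, from RefSeq, build GRCm38.p6, each 250 bases before to 50 after a start site). Because SRF binds the CArG box and TEAD factors bind GGAATG, these motifs were searched on both strands, along with the Smad motif CAGAC and the AP-1 motif TGANTCA. The CArG box was counted only as CCWWWWWWGG, where W is A or T. Near matches with another base among the W, such as ccctatatgg in the Acta2 sequence below, were not counted. A CArG box was in 2 of 10 cytoskeleton promoters, those of Cnn2 and Myl9, and in 1.63% of all 32851 promoters of the same length. Over all 30 member promoters the share was 6.67%. GGAATG was in 4 of the 30 member promoters, those of Acta2, Tpm1, Flna and Ccn1, a share of 13.33% against 14.66% of all promoters; the first 3 are among the 10 cytoskeleton promoters. CAGAC was in 43.33% of member promoters and 2 of the 10 cytoskeleton promoters, against 49.59% of all. TGANTCA was in 1 member promoter, that of Ltbp3, and in 0 of the cytoskeleton promoters, against 7.81% of all. A match is a description of the letters and not a sign of binding. The sequences below are the 250 bases before the start site of 4 members that fell, on the strand of the gene, with the CArG box in capitals for Cnn2 (plus strand, chr10:79988350-79988599) and Myl9 (plus strand, chr2:156775214-156775463) and with GGAATG or its complement in capitals for Acta2 (minus strand, chr19:34255374-34255623) and Ccn1 (minus strand, chr3:145649986-145650235).
Cnn2: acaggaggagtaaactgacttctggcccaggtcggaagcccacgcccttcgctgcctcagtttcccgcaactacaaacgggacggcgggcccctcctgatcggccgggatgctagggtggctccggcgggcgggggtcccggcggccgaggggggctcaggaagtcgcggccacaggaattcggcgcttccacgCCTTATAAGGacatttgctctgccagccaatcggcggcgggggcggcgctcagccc
Myl9: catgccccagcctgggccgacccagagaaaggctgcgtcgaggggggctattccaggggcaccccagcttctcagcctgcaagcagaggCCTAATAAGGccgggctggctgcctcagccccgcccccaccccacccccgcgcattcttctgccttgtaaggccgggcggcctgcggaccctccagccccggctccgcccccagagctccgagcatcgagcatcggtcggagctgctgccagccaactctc
Acta2: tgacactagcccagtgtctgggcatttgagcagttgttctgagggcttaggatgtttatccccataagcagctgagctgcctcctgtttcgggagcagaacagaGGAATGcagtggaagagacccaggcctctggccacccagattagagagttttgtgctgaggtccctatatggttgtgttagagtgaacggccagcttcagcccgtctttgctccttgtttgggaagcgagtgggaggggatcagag
Ccn1: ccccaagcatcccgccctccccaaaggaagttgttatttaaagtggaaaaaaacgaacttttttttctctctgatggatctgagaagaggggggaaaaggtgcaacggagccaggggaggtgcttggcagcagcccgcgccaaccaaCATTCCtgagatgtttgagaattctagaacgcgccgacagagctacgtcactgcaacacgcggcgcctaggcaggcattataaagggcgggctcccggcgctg
Counted from the start site, the capitals begin at base -56 in Cnn2, -161 in Myl9, -146 in Acta2 and -103 in Ccn1; the Ccn1 match reads on the opposite strand. Beside them, the 4 genes fell 2.98-fold, 2.80-fold, 2.09-fold and 3.40-fold in the iPSC lines, in that order.

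Other genes of the pathway were taken from lists chosen for their known roles. Their shares are to be read against the 29.0% of all genes that rose and the 17.8% that fell, and their medians against 0.15. Where genes below the floor on a whole side are left out, the shares to compare are 28.3% and 16.4%. Of 23 measured regulators, 9 rose (39.1%), 5 fell (21.7%) and 9 did not pass, with a median log2 difference of 0.25. Without Itgb8, which was below the floor in both lines, 9 of 22 rose (40.9%) and 4 fell (18.2%). The activin type I receptor Acvr1b read 10.46 and 10.20 in the 10 day and 38 h lines. The Sumo2-labelled and Firefly cultures read 8.31 and 8.35, so Acvr1b rose 4.01-fold in the lines (limma adjusted p = 0.000531). Foxh1, a Smad partner in Nodal signalling, rose 5.41-fold as read (limma adjusted p = 0.02), or at least 3.90-fold with the Firefly culture set at the floor. The cultures were far apart for Foxh1, at 7.77 in the Sumo2-labelled and 5.70 in the Firefly culture. Of the integrin subunits that can free latent TGF-beta, Itgav fell 2.16-fold (limma adjusted p = 0.00101). Itgb8 reached the floor in the Firefly culture alone (7.09) and, counted from it, was at least 1.16-fold lower in the lines, with no test given. Of 14 other TGF-beta responsive genes, 7 fell (50%), 2 rose (14.3%) and 5 did not pass (median -0.62); without the pair below the floor on one whole side, Edn1 and Dact1, 6 fell and 1 rose of 12. Edn1, endothelin-1, was below the floor in both lines (6.26 and 6.10) against 10.47 and 10.83 in the Sumo2-labelled and Firefly cultures, at least 15.9-fold lower. Dact1 read 7.90 and 8.14 in the lines and was below the floor in both cultures (6.13 and 5.64), at least 2.58-fold higher. No test is given for either, since each was measured through its high side alone. Thbs2 fell 3.18-fold (limma adjusted p = 0.00348) and Bhlhe40 rose 1.62-fold (limma adjusted p = 0.0218).

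Elastic and fibrillar matrix genes also went both ways, with 8 of 18 lower (44.4%), 2 higher (11.1%) and 8 not passing (median -0.46). Without the 3 that were below the floor on a whole side, Fbn2 among them, 7 of 15 fell (46.7%) and 2 rose (13.3%). The fibulin gene Fbln5, needed for elastic fibres, read 7.67 and 8.34 in the 10 day and 38 h lines against 11.58 and 11.96 in the Sumo2-labelled and Firefly cultures, 13.6-fold lower (limma adjusted p = 0.000313), and its relative Efemp1 fell 11.1-fold (limma adjusted p = 0.000105). Other fibulins rose: Fbln1 by 2.07-fold (limma adjusted p = 0.00244) and Fbln2 by 1.63-fold (limma adjusted p = 0.033). Of 29 further actin cytoskeleton genes, 15 fell (51.7%), 2 rose (6.90%) and 12 did not pass (median -0.58). Actg2, the smooth muscle gamma actin, read 8.64 and 8.77 in the lines against 12.25 and 12.60 in the cultures and fell 13.1-fold (limma adjusted p = 0.000105); the focal adhesion protein gene Zyx fell 4.81-fold (limma adjusted p = 0.000371). Des, the muscle filament desmin, rose 3.22-fold (limma adjusted p = 0.00477), and Csrp2 rose 1.96-fold (limma adjusted p = 0.00436). Among 9 measured SRF and TEAD pathway regulators, 5 fell (55.6%), Tead2 rose 1.49-fold (11.1% of the list; limma adjusted p = 0.0193) and 3 did not pass (median -0.53). Tead3 fell 2.81-fold (limma adjusted p = 0.00164) and Wwtr1, the TEAD co-activator TAZ, fell 2.25-fold (limma adjusted p = 0.00338).

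**Figure D3:**
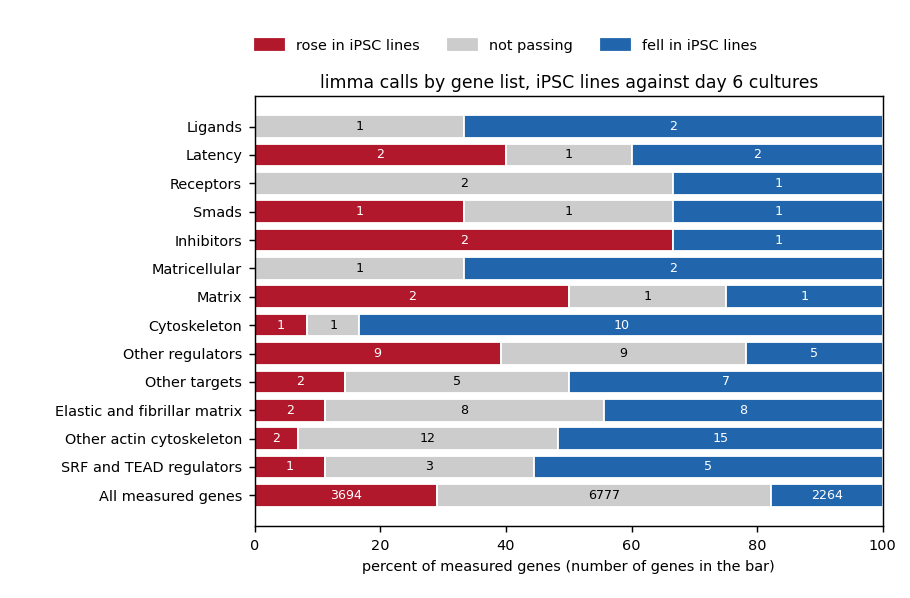
Percent of measured genes in each list (x axis) that rose, did not pass or fell in the iPSC lines against the day 6 cultures by limma, with the number of genes printed in each bar. The cytoskeleton bar is mostly lower calls (10 of 12), the inhibitor bar holds 2 higher and 1 lower, and the bottom bar gives all 12735 measured genes. The bars also count genes below the floor on a whole side, such as Postn in the matrix bar, for which no test is given.

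The second question was how the culture labelled Sumo2 knockdown differed from the Firefly culture on day 6. This sets 1 array against 1, so there is no test, and values are given with a size rule of 2-fold. Of 35 measured members (Postn was below the floor in both cultures) 31 were lower in the Sumo2-labelled culture and 4 higher, where 46.3% of all 11740 measured genes were lower and 53.7% higher, and the median log2 difference was -0.19 against 0.02 over all genes. The steps were small. Only Tgfbi was 2-fold lower (10.15 in the Sumo2-labelled and 11.19 in the Firefly culture, 2.05-fold), none was 2-fold higher, and over all genes 0.23% and 0.945% passed in these directions. Next came Tgfbr3, at 7.83 in the Sumo2-labelled and 8.77 in the Firefly culture (1.92-fold lower), Tgfb1i1, at 9.91 and 10.68 (1.71-fold lower), Ltbp2, at 9.51 and 10.16 (1.56-fold lower), and Myl9, at 10.87 and 11.48 (1.53-fold lower). With Tgfbi these are the 5 members at least 1.5-fold lower, and 0 were as much higher; of all genes 2.81% were lower and 4.09% higher by this rule, 6.9% in all.

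All 12 cytoskeleton genes were lower in the Sumo2-labelled culture, with differences of -0.77 to -0.03, and so were the 3 receptors, the 3 inhibitors and the 3 matricellular genes. Fibroblast markers moved with them: all 6 read lower in the Sumo2-labelled culture, Mmp2 by -0.77, Thy1 by -0.48 and Prrx1 by -0.09. Twist2, also among the 6, was below the floor there (5.86), and counted from the floor its difference was -0.014. Of the pluripotency markers, Nanog and Tdgf1 moved further and the other way. Nanog was 5.02-fold higher in the Sumo2-labelled culture, Tdgf1 read 8.92 there and was below the floor in the Firefly culture (at least 4.84-fold higher), and Esrrb was at least 1.31-fold higher, while Sox2 and Zfp42 were below the floor in both. The macrophage marker Lyz2 read 6.09, below the floor, in the Sumo2-labelled and 7.15 in the Firefly culture, at least 1.39-fold lower. Cd68 was nearly level, at 8.72 and 8.69 in the same order, and the other macrophage markers were below the floor in both. The part of these markers in the differences was not tested. The 4 members that were higher were Ltbp4 (9.67 in the Sumo2-labelled and 9.13 in the Firefly culture, 1.45-fold), Ltbp1 (7.64 and 7.22, 1.34-fold), Tgfb2 (9.23 and 9.13) and Smad2 (9.68 and 9.65), the last of which turned sign after cyclic loess. The signalling Smads were nearly level, with differences of -0.03 to 0.03, and so was Fn1 (-0.002). Of the other pathway genes Foxh1 alone passed 2-fold, at 7.77 in the Sumo2-labelled culture and below the floor in the Firefly culture, at least 2.19-fold higher.

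**Figure D4:**
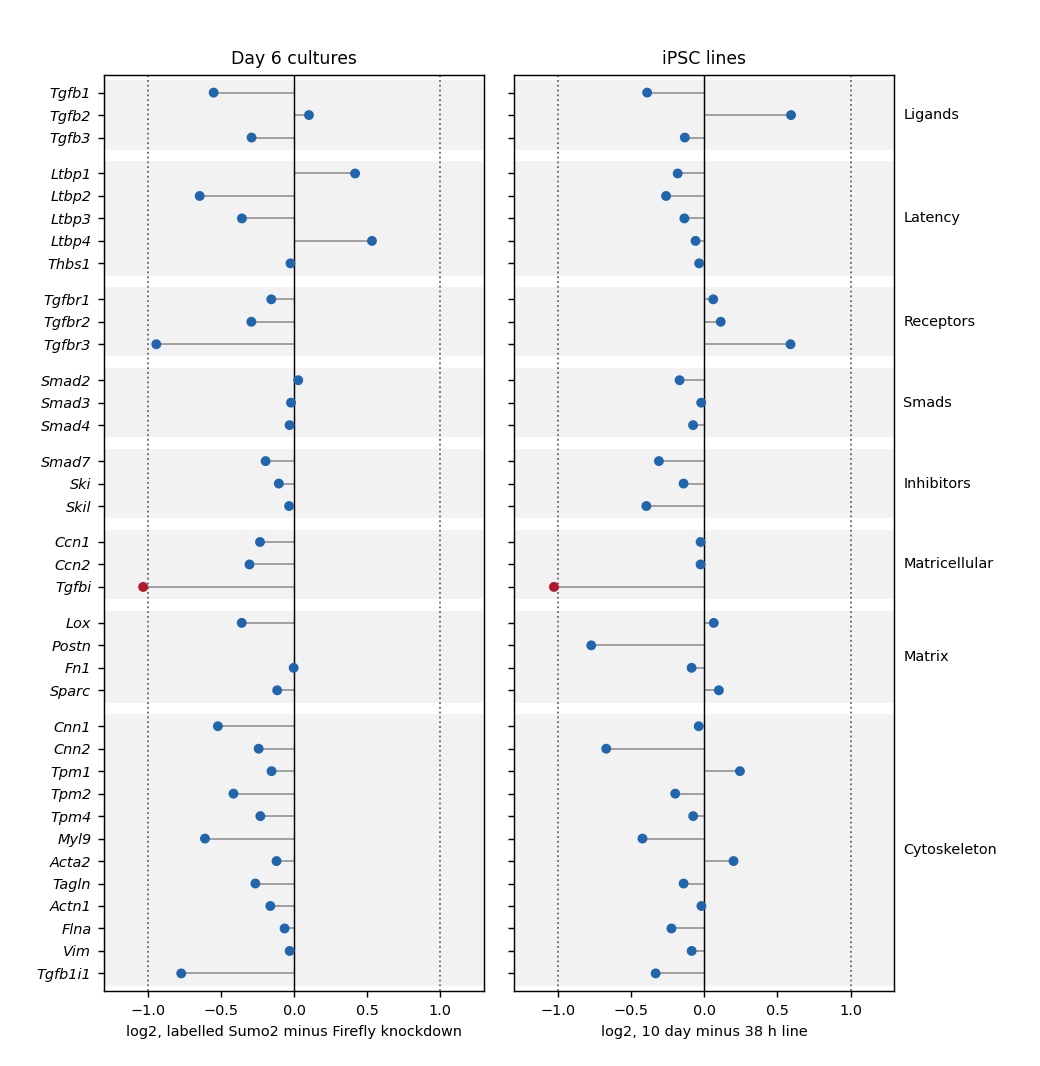
Log2 difference (x axis) for each member in the comparisons of 1 array with 1, the day 6 culture labelled Sumo2 knockdown minus the Firefly culture on the left and the 10 day minus the 38 h iPSC line on the right; dotted lines mark 2-fold. Tgfbi (red) passes -1 in both panels, and the cytoskeleton genes on the left all lie below 0.

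The third question was whether the iPSC lines differed from each other. Again this is 1 array against 1. Of 36 members 28 were lower in the 10 day line and 8 higher, against 52.5% and 47.4% of all 11754 measured genes, by a median of -0.09 (all genes -0.02). Tgfbi was again the member past 2-fold, at 8.52 in the 10 day and 9.54 in the 38 h line (2.04-fold lower), where 1.03% of all genes were lower by that rule and 2.19% higher. Postn, at 8.27 in the 10 day and 9.05 in the 38 h line, was 1.71-fold lower, and Cnn2, at 9.98 and 10.65, was 1.59-fold lower. In the other direction stood Tgfb2, at 8.26 in the 10 day and 7.67 in the 38 h line (1.51-fold higher), and Tgfbr3, at 7.88 and 7.29 (1.504-fold higher). At 1.5-fold, 3 members were thus lower and 2 higher, against 4.11% and 6.44% of all genes, 10.5% in all. The 3 inhibitors were all lower in the 10 day line, by -0.40 for Skil, -0.31 for Smad7 and -0.14 for Ski. Of the 3 receptors Tgfbr3 was 0.59 higher there, while Tgfbr2 (0.11) and Tgfbr1 (0.06) were nearly level. Fibroblast markers were also lower in the 10 day line for 4 of 5 measured, by -0.69 for Col6a1 and for Mmp2 among them, and their part was not tested. Of the other lists, Dcn alone passed 2-fold as read (-1.66), and counted from the floor it was at least 1.11-fold lower in the 10 day line.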

How the data were processed

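The authors deposited log2 expression values, 1 per probe set and array, and the submitters' processing notes name RMA and Affymetrix Expression Console, with no version. The base was taken as 2, the scale RMA writes, since the table states none. RMA includes quantile normalization, which hides changes in total RNA per cell, and it compresses dim and very bright probe sets. The platform annotation gave 23521 of 41345 probe sets 1 gene symbol, which stood for 22180 genes. Genes were identified by GRCm38.p6 gene records, and no array coordinates were used.

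From these values, differences were computed with limma 3.58.1 in R 4.3.3 (intensity trend, 2 residual degrees of freedom) for iPSC lines against day 6 cultures, and as plain differences where 1 array met 1. An exact permutation test of 2 arrays against 2 cannot go below p = 0.333 and was not used. The number of arrays limits the precision, and the labels leave unsaid whether cultures were separate. All 36 members found are named; of the other lists, up to 2 passing genes with the largest difference in each direction, those 2-fold apart in comparisons of 1 array with 1, and markers of other cell types. The members and lists were chosen with earlier results of these data known. Alternatives were cyclic loess, no filter on low values, the median over probe sets, no intensity trend, a 1.5-fold rule and leaving out each array. After seeing the data, counts were also made without genes below the floor on both arrays of a side.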

Additional observations from a re-analysis of the deposited data

How the results depend on the processing

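Of the 28 members that passed between iPSC lines and day 6 cultures, 23 passed in every fit that kept all 4 arrays. How many of all genes did so was not counted. The calls on Smad2, Cnn1, Ski, Sparc and Actn1 were lost in at least 1 of these fits. Postn is among the 23, but it was measured through the lines alone and no test is given for it. Calls lost when an array was left out are given with the genes above. In 4 of the alternative fits an array is left out, so 1 residual degree of freedom remains. The lone array is then assumed to vary like the other pair, which are unlike conditions. Leaving out each array gave a median over members of -0.55 to -0.40, beside 0.14 to 0.18 over all genes. Cyclic loess moved the median over all genes to 0.02 and that over members to -0.65, so the members' median differed from that of all genes by -0.68 as deposited and by -0.672 after cyclic loess. Small differences that did not pass changed sign: after cyclic loess Tgfb1 (-0.056) and Tgfbr1 (-0.11), and across the fits that left out an array Tgfb1 (-0.12 to 0.43), Tgfbr1 (-0.032 to 0.12) and Ccn2 (-0.22 to 0.082); the cause was not tested. With a 1.5-fold rule 5 members were lower and 0 higher on day 6, and 3 lower and 2 higher in the 10 day line. No paired analysis was possible because each array is of a different condition, with no replicate.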

Other observations

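Tgfbi differed by nearly the same amount in the day 6 pair (-1.03, Sumo2-labelled minus Firefly) and in the iPSC pair (-1.03, 10 day minus 38 h), which share no array. The following genes were chosen after their values were seen. Among receptors of related ligands, the co-receptor gene Eng was 0.74 higher in the 10 day than in the 38 h line (10.85 and 10.12) and read 10.86 in the Sumo2-labelled and 10.63 in the Firefly culture, and the BMP and TGF-beta receptor gene Acvrl1 was 0.38 higher in the 10 day line (7.05 and 6.67). Inhba, the activin A subunit, rose 2.36-fold in the iPSC lines (limma adjusted p = 0.00778), while Fst, which binds and blocks activin, fell 2.14-fold (limma adjusted p = 0.00446). Pecam1, which was on the list of endothelial markers above and not chosen in this way, is also known from mouse pluripotent cells.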
